A study of Mus musculus with 8 samples.

Results

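The Id genes (Id1, Id2, Id3 and Id4) and the E protein genes (Tcf3, Tcf4 and Tcf12) were followed on 2-colour expression arrays of mouse B cell precursors. All non-control probes whose gene name in the files is one of these 7 symbols or the older name Tcfe2a were taken, 15 of 41174 probes. Tcf3 was read through the 2 probes that the files call Tcfe2a, whose accession is that of the E2A gene. A further 2 probes that the files call Tcf3 carry the accession of Tcf7l1, a different factor that acts with beta-catenin, and were left out. Each gene was represented by its brightest probe, and all 7 were among 19976 features tested. Detection asked for a signal well above background on both arrays of some comparison, in one and the same RNA, and 14 of the 15 probes met this. The exception was the dimmer probe of Id4.

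The cells were bone marrow pro/preB cells of Pax5-/- mice, grown on a feeder layer of irradiated OP9 stromal cells in medium with IL-7. Clone 4, a single clone, held rtTA and a human Pax5 transgene (huPax5) that doxycycline switches on through rtTA. It was treated with doxycycline at 10 ng/ml (the low dose), 300 ng/ml (the middle dose) or 1000 ng/ml (the high dose). Pax5sz2 was labelled as doxycycline-treated, with no dose, and as carrying rtTA without huPax5. These are different cells from clone 4, so cells, transgene and doxycycline cannot be told apart in that comparison. All groups lack mouse Pax5. The control in each of the 4 comparisons was clone 4 kept without doxycycline (0 ng/ml), as labelled, so the comparisons share a control. Each comparison set 1 RNA against the control on a dye-swapped pair of arrays, which makes 8 arrays. The first array named below had the treated or Pax5sz2 RNA in Cy5 and the second had it in Cy3. A ± is the SD of those 2 technical arrays (n = 2), and no comparison has a test of its own. Ratios are log2 of the named RNA over the control, and levels are log2 normalized intensities of a single channel.

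Id and E proteins belong to the helix-loop-helix family. E proteins (E2A from Tcf3, E2-2 from Tcf4 and HEB from Tcf12) bind E-box DNA as dimers and drive early B cell genes. Id proteins have the dimerization domain but no basic DNA-binding region, so they hold E proteins in dimers that cannot bind DNA. In lymphoid progenitors, high E protein activity is known for B and T cell development, Id2 for innate lymphoid, NK and some myeloid and dendritic cells, and Id3 as a target of antigen receptor signals through Egr factors. These relations act largely at the protein level, and the arrays measured RNA.

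Stretches of 250 bases upstream of a start site (RefSeq, GRCm38.p6) are shown for Id2, Id3 and Tcf3, whose ratios had opposite signs at the middle and high doses as labelled. They lie at chr12:25096093-25096342 on the minus strand for Id2, chr4:136143572-136143821 on the plus strand for Id3 and chr10:80433636-80433885 on the minus strand for Tcf3. Capitals mark matches to the E-box CANNTG, searched on both strands.
Id2: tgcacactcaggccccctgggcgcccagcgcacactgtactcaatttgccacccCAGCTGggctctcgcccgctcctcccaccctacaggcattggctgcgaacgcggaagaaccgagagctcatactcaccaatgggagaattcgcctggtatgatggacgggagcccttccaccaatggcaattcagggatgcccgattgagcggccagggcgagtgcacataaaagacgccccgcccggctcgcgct
Id3: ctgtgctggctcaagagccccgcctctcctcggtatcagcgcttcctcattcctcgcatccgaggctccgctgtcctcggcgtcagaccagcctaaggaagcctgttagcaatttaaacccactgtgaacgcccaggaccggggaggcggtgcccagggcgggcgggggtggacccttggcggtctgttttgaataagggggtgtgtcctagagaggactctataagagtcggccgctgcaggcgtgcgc
Tcf3: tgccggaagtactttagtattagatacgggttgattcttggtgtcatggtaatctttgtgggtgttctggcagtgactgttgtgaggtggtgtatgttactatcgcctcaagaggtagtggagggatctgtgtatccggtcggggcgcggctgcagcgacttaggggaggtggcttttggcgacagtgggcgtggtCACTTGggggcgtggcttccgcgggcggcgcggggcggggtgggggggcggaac
The Id2 window held 1 E-box, the form CAGCTG, 196 bases before the start, and the Tcf3 window held 1 E-box 54 bases before it. No match to CANNTG was found in the Id3 window or in the Id4 window (chr13:48260866-48261115, plus strand). The 3 Tcf12 start sites had 1, 1 and 0 matches. Of 32851 RefSeq windows of this length, 66.2% held CANNTG and 13% held CAGCTG, which is one form of it. The Egr motif GCGNGGGCG had 2 matches in the Id4 window and none in the windows of Id2, Id3, Tcf3 and Tcf12, against 4.70% of all windows with a match. A match is a run of letters, and binding was not measured.

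The high-dose pair and 1 of the middle-dose arrays stood apart. Over all probes, ratios of the high-dose pair ran against those of the middle dose in both dye orientations. Across genes, which are not independent of each other, r was -0.36 for the first arrays and -0.46 for the second. The 1000 ng/ml pair used rehybridised slides and an older scanner protocol, so its dose and its batch cannot be told apart. Given the negative correlations and the control levels described below, the direction of this pair was not settled. The pair is given as labelled, and with the sign turned each of its ratios changes sign. The first 300 ng/ml array had 295 outlier spots against 37 to 115 on the other 7, and the 300 ng/ml pair correlated at 0.641 across features against 0.829 to 0.922 in the other pairs. The ratio on the second 300 ng/ml array is thus the value without it. Between 40.2% and 75.4% of probes were well above background per channel. The multiplier for that call was 2.6 on the 1000 ng/ml arrays and 13 on the other 6. The number of arrays limits the precision. All 14 pro-B and pre-B cell markers passed the detection filter, and 0, 1, 1 and 2 of them were higher and 0, 0, 3 and 3 lower in the order of the 3 doses and Pax5sz2 (medians -0.47, -0.37, -0.26 and -0.37).

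Id1 was higher than in the control at the low and middle doses and in Pax5sz2. Id3 was at least 2-fold higher on both arrays at the middle dose and in Pax5sz2. Id2 was lower at the middle dose, and as labelled Id2 was higher and Id3 lower at the high dose. None of the E protein genes, by its brightest probe, reached 2-fold on both arrays in any comparison. With median centring in place of loess, Id1 and Id3 did not pass on both arrays at the middle dose, and no gene did at the high dose, but the mean ratios changed little. They were 1.60 for Id1 and 1.04 for Id3 at the middle dose, and 1.71 for Id2 and -1.62 for Id3 at the high dose as labelled. By this size rule 1 of the 7 genes passed at 10 ng/ml, against 1.88% of all features tested. At 300 ng/ml 3 of 7 passed, against 3.67% of all features, and the same 3 passed on the second array alone. At 1000 ng/ml as labelled 2 of 7 passed, 1 in each direction, against 2.57% of all features. In Pax5sz2 2 of 7 passed, against 5.17% of all features. The shares of all features that were higher were 0.606%, 1.31%, 1.94% and 2.33% in this order, and those that were lower 1.27%, 2.37%, 0.636% and 2.83%.

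**Figure D1:**
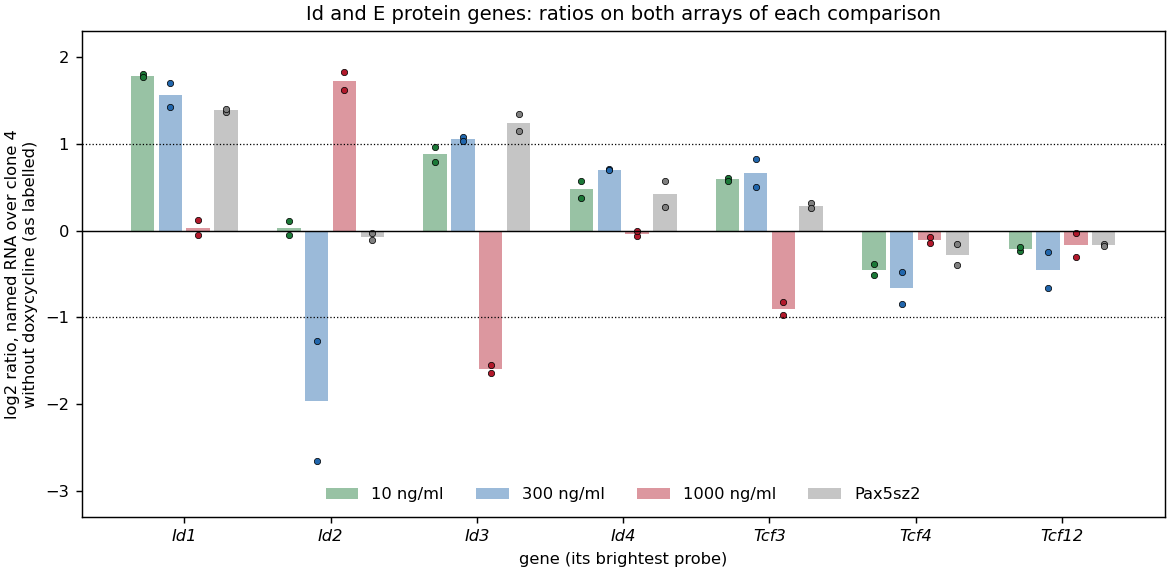
Log2 ratio of the named RNA over clone 4 without doxycycline for the brightest probe of each gene. Bars are means of 2 dye-swapped arrays, points are the arrays, dotted lines mark 2-fold, and 1000 ng/ml is drawn as labelled. Id1 stands above the upper line in 3 comparisons, Id2 and Id3 have opposite signs at 300 and 1000 ng/ml, and the bars of Tcf4 and Tcf12 lie below 0, which median centring turns for both in Pax5sz2 and for Tcf12 at 10 ng/ml.

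Id1, an Id gene that BMP signals induce through Smad proteins in many cells, had the largest positive ratio of the 7 genes in 3 of the 4 comparisons. At the low dose its brightest probe read 11.17 and 10.45 in the treated RNA and 9.37 and 8.68 in the control. The ratios of 1.80 and 1.78 gave a mean of 1.79 ± 0.019, or 3.46-fold. Both treated values lay above both control values, and 33 of 19969 features measured on both arrays had a higher mean ratio. In middle-dose RNA the probe read 11.08 and 10.63, in the control 9.38 and 9.20, and the mean ratio was 1.57 ± 0.20, with 1.43 on the second array. In Pax5sz2 the levels were 10.09 and 9.90 against 8.72 and 8.49, for a mean ratio of 1.39 ± 0.028, or 2.61-fold. The second Id1 probe gave 1.81 ± 0.033, 1.56 ± 0.073 and 1.40 ± 0.018 in these comparisons. The mean ratios of the probes thus differed by less than the SD of their arrays.

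At the high dose Id1 was near the control, at -0.048 and 0.12 on the arrays (mean 0.036 ± 0.12, or -0.036 with the sign turned). Its levels of 7.11 and 8.49, against 7.16 and 8.37 in the control, were well above background on 1 of 2 arrays in each RNA. The order of the mean ratios from high to low was the low dose, the middle dose, Pax5sz2 and the high dose. The arrays of the middle dose (1.43 to 1.71) overlapped with those of neither neighbour, at 1.78 to 1.80 and 1.37 to 1.41, but the difference between single RNAs was not tested. The neighbours on this profile over the 8 arrays were Pdk4, a kinase that inhibits pyruvate dehydrogenase (Euclidean distance 0.648), Maged2 (0.650) and Rraga, a GTPase of nutrient sensing (0.694). The median distance over 15463 candidates was 3.87.

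Some markers of stromal cells, the feeder layer, were past the size in the comparisons in which Id1 was. Of 18 stromal markers 4 were higher at the low dose and 0 lower (median ratio 0.78, range -0.37 to 1.45), and at the middle dose 7 were higher and 0 lower (median 0.93, range -0.80 to 1.91). In Pax5sz2 3 were higher and 1 lower (median 0.078), and at the high dose none passed in either direction (median -0.066). The median of all features lay between 0.0025 and 0.026. Cxcl12, the chemokine made by marrow stroma, was at 1.45 ± 0.013, 1.75 ± 0.27 and 1.78 ± 0.12 at the low and middle doses and in Pax5sz2. Col3a1, a fibrillar collagen, was at 1.27 ± 0.047 at the low dose and 1.91 ± 0.058 at the middle dose, with another of its probes differing. The summed level of the list (log2 of the summed intensities) was 15.74 in the treated RNA and 15.08 in the control at the low dose, 15.62 and 14.80 at the middle dose, 15.15 and 15.07 at the high dose and 15.54 and 15.20 in Pax5sz2. All 18 markers passed the detection filter. Their part in the Id1 and Id3 ratios was not tested, and in these bulk RNAs the share of a cell type and the RNA per cell cannot be told apart.

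Id2, the Id protein needed for innate lymphoid and NK cells, did not differ between the RNAs at the low dose beyond the spread of the arrays. There its brightest probe read 11.52 and 11.09 in the treated RNA and 11.41 and 11.14 in the control, for ratios of 0.11 and -0.048. Middle-dose values were 8.58 and 10.25 against 11.24 and 11.52, for ratios of -2.65 and -1.27 and a mean of -1.96 ± 0.98. Both arrays put Id2 below the control, but the lower value came from the array with the excess of outlier spots. The second probe gave -1.04 and -1.07 there (-1.05 ± 0.024), also past the size on both arrays. Both probes thus read Id2 as at least 2-fold lower on both arrays. The size of the drop differed between them mainly on the first array, at -2.65 and -1.04. On the second array it was -1.27 and -1.07. Over the alternative scalings the mean of the second probe lay between -1.07 and -0.95.

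At the high dose as labelled, Id2 read 10.92 and 10.79 in the treated RNA and 9.31 and 8.96 in the control. The ratios were 1.62 and 1.83 (mean 1.72 ± 0.15, 3.30-fold), and 1.47 and 1.45 with the second probe (1.46 ± 0.015). With the sign turned these are -1.72 and -1.46, on the same side as at the middle dose. In Pax5sz2 the probes differed. The brightest gave -0.11 and -0.029 (-0.069 ± 0.058), and the second -0.86 on both arrays (-0.86 ± 0.0055). From high to low the order of the Id2 ratios was the high dose as labelled, the low dose, Pax5sz2 and the middle dose. With the brightest probe, the low dose (-0.048 to 0.11) and Pax5sz2 (-0.11 to -0.029) overlapped.

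**Figure D2:**
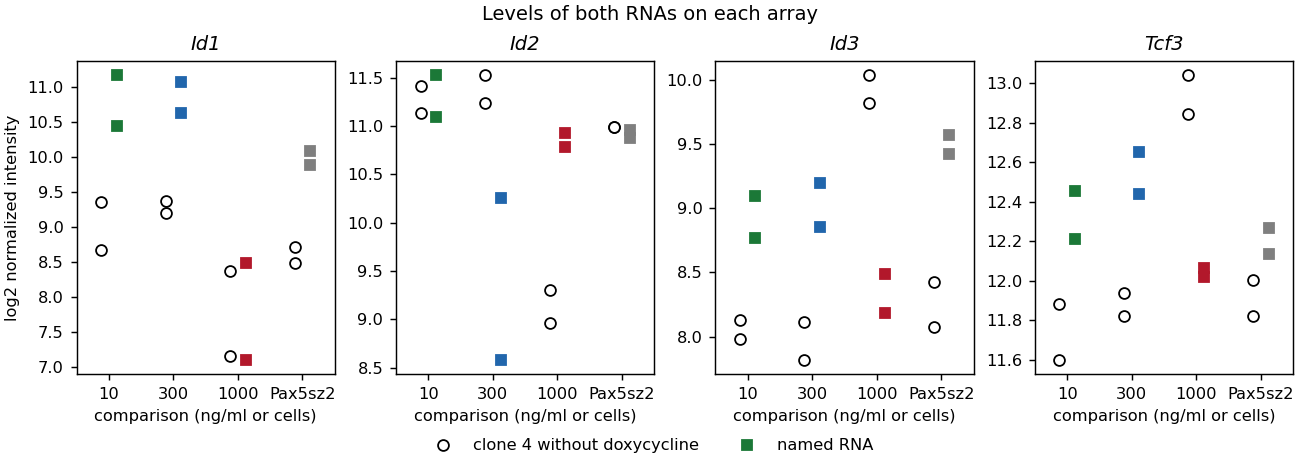
Log2 normalized intensity of Id1, Id2, Id3 and Tcf3 (brightest probes) on each array, with open circles for clone 4 without doxycycline and squares for the named RNA. For Id2, Id3 and Tcf3 the control values on the 1000 ng/ml arrays lie outside the range of the 6 other control values. For these genes the named RNA of that pair lies nearer to that range. For Id1 the control values of that pair (7.16 and 8.37) also lie below the other 6 (8.49 to 9.38). The named RNA of Id1 there reads 7.11 and 8.49.

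The features nearest to Id2 over the 8 arrays were Cbfa2t3 (distance 0.688), which encodes the corepressor ETO2, Ggta1 (0.789), a glycosyltransferase, and Cd93 (0.848), a marker of early B cell precursors, against a median of 3.90. These distances include the first middle-dose array, where the Id2 ratio was -2.65 against -1.27 on the second. The part of that array in the distances was not tested. Myeloid markers also went with Id2 in sign at the middle and high doses. Of 11 myeloid and granulocyte markers tested, 0 were higher and 4 lower at the middle dose (median -0.57, range -3.39 to 0.31), and 4 were higher and 0 lower at the high dose as labelled (median 0.58, range -0.11 to 5.14). Tyrobp, a signalling adaptor of myeloid and NK cells, was at -3.39 ± 0.0041 and 4.06 ± 0.098, and Ctsg, a granule protease, at -2.98 ± 0.13 and 5.14 ± 0.19. The summed level of the list was 12.75 against 15.20 in the control at the middle dose, and 15.26 against 11.85 at the high dose. Low-dose counts were 0 higher and 1 lower (median -0.092, range -1.35 to 0.39, summed level 14.96 against 15.14). In Pax5sz2 they were 0 and 2 (median -0.030, range -4.08 to 0.25, 14.15 against 15.34). Cebpe, S100a8 and S100a9 did not pass the detection filter. Of 6 NK and innate lymphoid markers tested, 1 was lower at the middle dose and 1 higher at the high dose. In Pax5sz2 2 were higher, and none was past the size at the low dose. The medians were -0.053, -0.16, 0.28 and 0.48 in the order of the 3 doses and Pax5sz2, where the range was -0.26 to 4.58. Nkg7, a granule protein, was at -2.46 ± 0.44 at the middle dose and 1.62 ± 0.055 at the high dose, while Ncr1, Gzmb, Prf1, Eomes and Zbtb16 did not pass that filter. The part of these markers in the Id2 ratios was not tested.

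Id3, which antigen receptor signals induce in lymphocytes, was above the control on both arrays at the low and middle doses and in Pax5sz2. At the low dose its 1 probe read 8.77 and 9.10 against 7.98 and 8.13, for ratios of 0.79 and 0.97 (0.88 ± 0.13), short of 2-fold on both arrays. For the middle dose it read 9.19 and 8.86 against 8.11 and 7.82, for ratios of 1.08 and 1.04 (1.06 ± 0.031). In Pax5sz2 it read 9.57 and 9.42 against 8.42 and 8.08, for ratios of 1.15 and 1.35 (1.25 ± 0.14, 2.37-fold). The named and control values did not overlap in these 3 comparisons. From high to low these ratios ranked Pax5sz2, the middle dose and the low dose, with no overlap of their arrays.

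Id3 at the high dose as labelled read 8.19 and 8.49 in the treated RNA and 9.83 and 10.04 in the control. The ratios of -1.64 and -1.55 (-1.6 ± 0.062, 3.02-fold lower) were among the lowest on these arrays, with 56 of 19900 features below. With the sign turned the ratio is 1.6, which is on the side of the other 3 comparisons and above them. The features nearest to Id3 were Tac4, a tachykinin gene (distance 0.697), Rras2, a Ras-family GTPase (0.721), and 1810062O18Rik (0.982), against a median of 3.46.

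Id4, the fourth Id gene, was dim on these arrays. Its brighter probe read 7.25 and 6.98 against 6.54 and 6.29 at the middle dose, the one comparison in which both RNAs were well above background on both arrays, and the mean ratio was 0.70 ± 0.0073. At the low dose the ratio was 0.47 ± 0.14, with the control well above background on 1 of 2 arrays. In Pax5sz2 the control was not well above background on either array, so the ratios of 0.27 and 0.57 (mean 0.42 ± 0.22) are uncertain. Neither RNA of the high-dose pair was well above background. The size of the Id4 ratio moved with the processing. Agilent's processed signals and the series matrix, which differ in both background correction and normalization, gave up to 1.64, 2.02 and 1.81 at the low and middle doses and in Pax5sz2.

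Tcf3, the gene of the E2A proteins E12 and E47, was above the control in 3 comparisons by less than 2-fold. Its brightest probe read 12.21 and 12.45 against 11.60 and 11.88 at the low dose (ratios 0.61 and 0.57, mean 0.59 ± 0.027). At the middle dose it read 12.65 and 12.44 against 11.82 and 11.94 (0.83 and 0.50, mean 0.67 ± 0.23). In Pax5sz2 it read 12.13 and 12.27 against 11.82 and 12.01 (0.31 and 0.26, mean 0.29 ± 0.038). The treated and control values did not overlap in these comparisons. The ratios at the low and middle doses overlapped with each other, and both lay above those of Pax5sz2.

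At the high dose as labelled, Tcf3 read 12.02 and 12.06 against 12.85 and 13.04, for ratios of -0.83 and -0.97 (-0.90 ± 0.11, or 0.90 with the sign turned). The second Tcf3 probe gave 0.60 ± 0.0077 at the low dose and -0.76 ± 0.38 at the high dose. At the middle dose it gave -0.97 on the array with the excess of outlier spots and 0.83 on the other, and in Pax5sz2 -0.0074 ± 0.029. The probes thus had like ratios at the low dose and the same sign on the second middle-dose array, at 0.50 and 0.83. The second probe did not show the small Pax5sz2 ratio.

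Tcf4, the gene of E2-2, which is required for plasmacytoid dendritic cells, was below the control in the brightest probe. Its levels at the low dose were 11.92 and 11.68 against 12.44 and 12.07, with ratios of -0.52 and -0.39 (-0.45 ± 0.089). The middle-dose levels were 11.60 and 11.50 against 12.45 and 11.98, with ratios of -0.85 and -0.47 (-0.66 ± 0.26). The ratio was -0.11 ± 0.056 at the high dose and -0.28 ± 0.17 in Pax5sz2. A second probe gave -0.17, -1.22, -0.089 and -0.71 in the order of 10, 300 and 1000 ng/ml and Pax5sz2, where the value at the middle dose was made of -1.94 and -0.51. The third, dimmer, probe gave -0.37, -0.37, -0.47 and -0.081. All 3 probes thus had negative means throughout, as labelled, but none was past the size on both arrays. Median centring in place of loess turned the brightest probe to 0.16 in Pax5sz2, and the second probe to 0.055 at the low dose. Over the alternative scalings the third probe reached -1.25 at the middle dose and -1.30 at the high dose as labelled.

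Tcf12, the gene of HEB, had 3 probes, and they did not read the same. The brightest was at 13.24 and 13.08 in the treated RNA and 13.48 and 13.26 in the control at the low dose, for a mean ratio of -0.21 ± 0.038. It gave -0.45 ± 0.30 at the middle dose, -0.17 ± 0.19 at the high dose and -0.16 ± 0.020 in Pax5sz2. Median centring turned it to 0.12 at the low dose and 0.31 in Pax5sz2. The probe with the RefSeq accession gave -0.42 ± 0.16, -0.12 ± 0.32, -0.14 ± 0.056 and -0.17 ± 0.13 in this order, and other scalings turned it to as much as 0.21 at the middle dose and 0.15 in Pax5sz2. Neither probe was past the size in any comparison.

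The third Tcf12 probe, A_52_P859153, carries the accession of a complementary DNA clone rather than of a RefSeq transcript, and was past the size in 3 comparisons. Its low-dose levels were 8.62 and 8.68 in the treated RNA and 10.51 and 10.43 in the control, for ratios of -1.89 and -1.75 (-1.82 ± 0.10, 3.53-fold lower). In the middle-dose comparison it read 9.09 and 8.80 against 10.69 and 10.31 (-1.56 ± 0.065), and in Pax5sz2 8.65 and 8.94 against 10.60 and 10.40 (-1.70 ± 0.35). As labelled, the high-dose ratios were 0.71 and 1.08 (0.89 ± 0.26), or -0.89 with the sign turned. Which Tcf12 transcript this probe reads was not determined. Over the range of all alternative scalings its ratio stayed between -1.89 and -1.63 at the low dose, -1.76 and -1.54 at the middle dose and -1.82 and -1.41 in Pax5sz2. A further pair of probes, under a clone name that is now a synonym of Tcf12, lay between -0.65 and 0.16 in all comparisons.

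**Figure D3:**
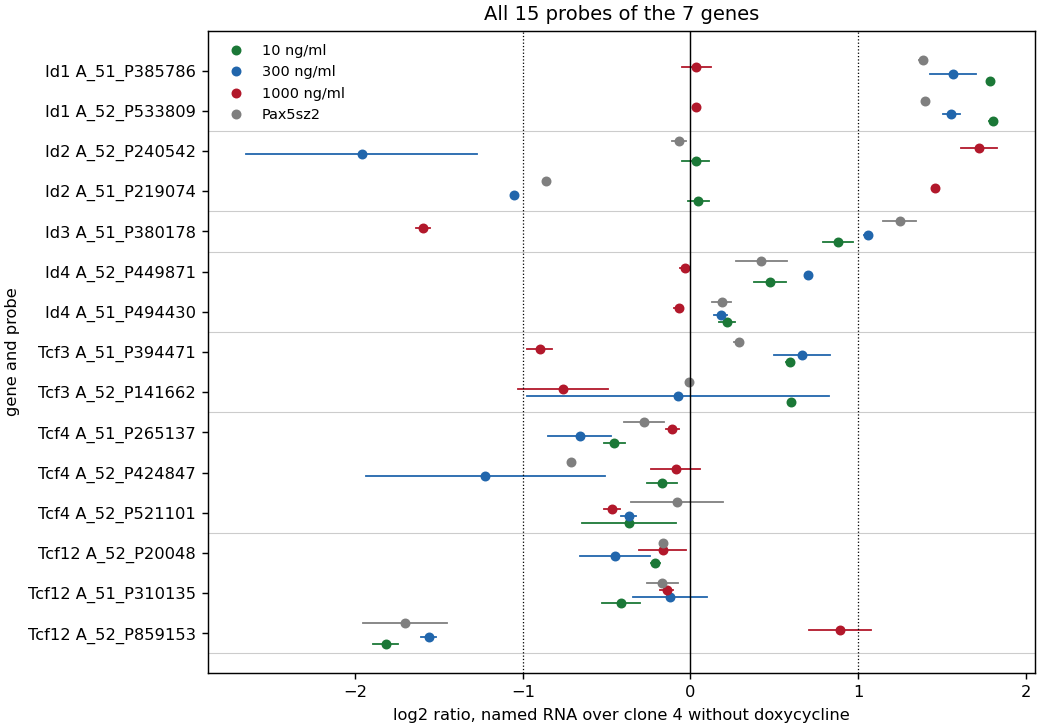
Log2 ratio of all 15 probes, with dots at the mean of 2 arrays and lines between the arrays, 1000 ng/ml as labelled. The 2 Id1 probes nearly coincide, the Id2 probes part in Pax5sz2, and the Tcf12 probe A_52_P859153 lies below -1 in 3 comparisons where the other Tcf12 probes lie near 0.

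The level in the channel labelled as the control differed between the high-dose arrays and the other 6 arrays for some of these genes. These levels are compared across batches, so the RNA and the batch cannot be told apart in them. With the labels of the high-dose pair turned, this channel would hold the treated RNA. Id2 in the control ranged from 10.99 to 11.52 on the 6 arrays, and read 9.31 and 8.96 on the high-dose arrays, a difference of means of -2.08 that 1.03% of features matched or passed in size. For Id3 the control ranged from 7.82 to 8.42, and read 9.83 and 10.04 on the high-dose arrays (difference 1.84, 1.52% of features). For Tcf3 it ranged from 11.60 to 12.01, against 12.85 and 13.04 (difference 1.1, 5.73% of features). The median difference over all features was 0.22 in size. In each case the high-dose control lay outside the range of the 6 other controls. The RNA labelled as the high dose had means of 10.86 for Id2, 8.34 for Id3 and 12.04 for Tcf3, against means of the 6 controls of 11.21, 8.09 and 11.84. For Id1 the high-dose control also lay below the other 6, at 7.16 and 8.37 against 8.49 to 9.38 (difference -1.21, 4.63% of features). The Id1 mean in the RNA labelled as the high dose, 7.80, was also below the mean of the 6 controls (8.97). For Id4, Tcf4 and Tcf12 the control differences were 0.076, 0.14 and -0.057.

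A mean doxycycline effect over the 3 doses was tested with limma, with doses as replicates and Benjamini-Hochberg adjustment over all 19976 features. As labelled 0 features passed (0% called), the smallest adjusted p being 0.701, whereas 1183 lay under 0.05 before adjustment. None of the 7 genes passed, with mean effects of 1.13 ± 0.43 (SE) for Id1 (adjusted p = 0.701) and -0.41 ± 0.14 for Tcf4 (adjusted p = 0.701). Id2, Id3 and Tcf3 had mean effects of -0.070, 0.11 and 0.12. With the high-dose sign turned, 0 passed again (0.12 was the smallest adjusted p), and 4904 lay under 0.05 before adjustment. The turned effects were 1.18 ± 0.17 for Id3 (limma adjusted p = 0.12), 0.72 ± 0.087 for Tcf3 (adjusted p = 0.12) and -1.22 ± 0.47 for Id2 (adjusted p = 0.222).

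Without the high-dose pair, which is also the fit within the later batch, 2877 features passed, 14.4% of those tested. Before adjustment 7584 lay under 0.05, and the smallest adjusted p in limma was 0.0373. Of the 7 genes 4 passed in limma, all higher, and of the 18 stromal markers 10 passed. These were Id1 at 1.68 ± 0.088 (SE; adjusted p = 0.0373), Id3 at 0.97 ± 0.079 (adjusted p = 0.0373), Tcf3 at 0.63 ± 0.064 (adjusted p = 0.0389) and Id4 at 0.59 ± 0.089 (adjusted p = 0.0498). Tcf4 at -0.56 ± 0.085 (adjusted p = 0.0501), Tcf12 at -0.33 ± 0.092 (adjusted p = 0.108) and Id2 at -0.97 ± 0.58 (adjusted p = 0.327) did not pass. This fit rests on 2 treated RNAs that share a control, and the control's spread does not enter it.

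Regulators that feed into Id genes were read next, from a list of BMP, TGF-beta and Egr genes of which 16 of 19 were tested. At the low dose 2 were higher and 0 lower (median 0.019, against 0.014 for all features). These were the immediate early factors Egr1 at 1.23 ± 0.12 and Egr2 at 1.25 ± 0.14. At the middle dose 1 was higher, Egr2 at 1.38 ± 0.028, and 0 lower (median -0.26, against 0.0025), while Egr1 was left out on 1 array as an outlier spot and read 1.59 on the other. At the high dose as labelled 1 was higher, Smad1, a mediator of BMP signals, at 1.41 ± 0.097 with another probe differing, and 0 lower (median 0.074). Egr1 and Egr2 were at -0.77 and -0.59 there. Of the 16, 0 passed in Pax5sz2 in either direction (median -0.060), with Egr1 at -0.57 and Egr2 at 0.025. The part of Egr1 and Egr2 in the Id3 ratios was not tested. In the limma fit without the high-dose pair 4 of the 16 passed, against 14.4% of all features. Egr1 and Egr2 were among them (adjusted p = 0.0375 and 0.0373).

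Of 7 class II helix-loop-helix partners of E proteins that were tested, 0 passed the size in any of the 4 comparisons. At the high dose 4 of them were not well above background in either RNA. The highest mean ratio at the middle dose was 1.03, which was not past the size on both arrays. Their medians were 0.30 at the low dose, 0.12 at the middle dose, -0.064 at the high dose and 0.074 in Pax5sz2. Tal1 and Lyl1, haematopoietic partners of E2A, lay between -0.11 and 0.36. Of 10 cofactors, 0 passed at the low dose (median 0.16). At the middle dose 0 were higher and 1 lower (median 0.13), Cbfa2t3 at -1.97 ± 1.21, which read -1.12 on the second array. At the high dose as labelled 2 were higher and 0 lower (median 0.10), Lmo2, an adaptor of E protein and Tal1 complexes, at 1.61 ± 0.073 and Cbfa2t3 at 1.43 ± 0.29. In Pax5sz2 1 was higher and 0 lower (median 0.022), Lmo4 at 2.01 ± 0.18 with another probe differing. Of 6 genes of Id and E protein turnover 0 passed the size in any comparison, with medians of 0.25, 0.079, -0.39 and 0.050. That list holds Usp1, the deubiquitinase of Id proteins, at -0.32, -0.25, -0.61 and -0.12.

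Known targets of E proteins in lymphoid cells formed the last list, with 24 genes tested. At the low dose 1 was higher and 0 lower (median -0.092), Socs1, an inhibitor of cytokine signals, at 1.20 ± 0.038. At the middle dose 4 were higher and 1 lower (median -0.066). The adaptor gene Blnk was at 2.62 ± 0.12, Socs1 at 1.21 ± 0.070 and Notch1, the T lineage receptor, at -1.53 ± 0.17. Blnk is also a known target of Pax5. At the high dose as labelled 3 were higher and 6 lower (median -0.21), with Blnk at -4.20 ± 0.27, Notch1 at 2.6 ± 0.13 and Bach2 at -1.49 ± 0.10. With the sign turned the counts are 6 higher and 3 lower.

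In Pax5sz2 2 targets were higher and 5 lower (median -0.14, against 0.026 for all features). The surrogate light chain genes Vpreb1 and Igll1 were at 7.88 ± 0.94 and 5.65 ± 0.44, and Dntt, the terminal transferase of V(D)J joining, and Blnk at -4.89 ± 0.32 and -3.41 ± 0.030. Targets past the size thus lay on both sides at the middle dose, at the high dose and in Pax5sz2. In the limma fit without the high-dose pair 1 of the 24 passed, Socs1 (adjusted p = 0.0373), against 14.4% of all features. T lineage markers had 1 of 9 higher at the high dose and 1 of 9 higher in Pax5sz2, and 0 lower in all 4 comparisons. Dendritic cell markers had 2 of 8 lower at the middle dose and 1 of 8 higher at the high dose, with none past the size otherwise.

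**Figure D4:**
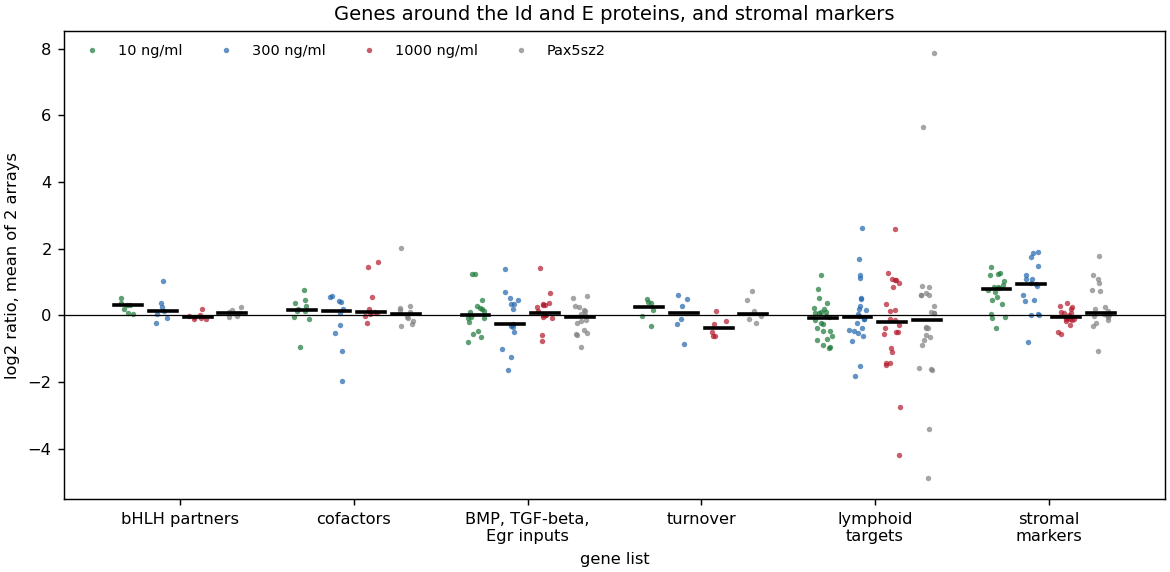
Log2 ratio (mean of 2 arrays) of the tested genes of 5 lists around the Id and E proteins and of stromal markers, in 4 comparisons with 1000 ng/ml as labelled. Points are genes and black lines are medians. The lymphoid targets spread from -4.89 to 7.88 about medians near 0, and the stromal medians are 0.78 and 0.93 at 10 and 300 ng/ml.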

How the data were processed

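Total RNA was labelled in 2 colours, and each comparison was hybridised with the dyes both ways, per the labels. Per the file headers, the deposited array files give each channel's mean spot intensity and median background intensity, not normalized, from Agilent Feature Extraction (version 10.5.1.1 in the header read). They also hold processed intensities and a log10 ratio, and the authors' series matrix equals that deposited log10 ratio, with its sign turned on the second arrays. In R 4.3.3 with limma 3.58.1, background was corrected (normexp, offset 50), log2 ratios were normalized by loess (weight 0 for control spots), and outlier spots were left out. Levels are loess and Aquantile values. No spot was saturated. Spots of a probe were averaged, and 41174 probes were named through RefSeq accessions or symbols where possible. A single comparison was called by size: log2 of 1 or more, or -1 or less, on both arrays. The fit over doses used lmFit and eBayes, two-sided. A list's genes were named by size, up to 4 per comparison (3 for markers), and neighbours are the 3 nearest features over the 8 ratios. Tal1, Lyl1 and Usp1 were named outside this rule, after their values were seen. For 1 listed gene no values are reported here. Genes and lists were chosen with earlier results of these data known. Statistical steps were tested on simulated data. Alternatives are given in the closing section. No genome was used, and probe coordinates, whose build is not named, are not printed.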

Additional observations from a re-analysis of the deposited data

Results flagged for a closer look

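Id2 and Id3 each passed the size with opposite signs at 2 doses as labelled, and the difference between doses was not tested. The log2 ratio of Id2 was -1.96 with 300 ng/ml and 1.72 with 1000 ng/ml. For Id3 these ratios were 1.06 and -1.6. With the sign of the 1000 ng/ml pair turned, each gene has 1 sign at both doses. The brightest Tcf3 probe (0.67 and -0.90) and the Tcf12 probe A_52_P859153 (-1.56 and 0.89) also had opposite signs on all arrays of these doses. The Tcf3 probe was short of the size at both doses, and the Tcf12 probe only at 1000 ng/ml. The second Tcf3 probe did not have opposite signs on all arrays. It read -0.97 and 0.83 on the 300 ng/ml arrays and -0.49 and -1.03 on the 1000 ng/ml arrays.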

How the results depend on the processing

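The number of features past the size moved with the scaling. Agilent's processed signals gave 1036 at 10 ng/ml (404 higher, 632 lower), 1883 at 300 ng/ml and 2121 in Pax5sz2 (1099 higher, 1022 lower), against 375, 734 and 1032. Median centring gave 148 (74 higher, 74 lower), 478 (96 higher, 382 lower), 193 at 1000 ng/ml against 514, and 683 in Pax5sz2 (478 higher, 205 lower). Series matrix ratios gave 1052, 1865, 921 and 2160. Leaving out 1 array gave 555 to 689 at 10 ng/ml, 1092 to 2263 at 300 ng/ml, 688 to 767 at 1000 ng/ml and 1270 to 1379 in Pax5sz2. At 10 ng/ml, 3 of the 7 genes passed with processed signals or series matrix ratios (Id1, Id3 and Id4), against 1. With median centring 1 of 7 (Id2) passed at 300 ng/ml and 0 at 1000 ng/ml, while the mean ratios stayed at 1.60 (Id1) and 1.04 (Id3) at 300 ng/ml and 1.71 (Id2) and -1.62 (Id3) at 1000 ng/ml. The other 29 counts of the 7 genes stayed within 1.5 times. No called ratio of their probes changed sign. The limma fit called 0 features in 14 alternatives and 2877 without the 1000 ng/ml pair, where fewer samples enter. The mean effect of Id2 (-0.070) reversed with processed signals (0.16), median centring (0.019), series matrix ratios (0.14), all probes averaged (0.041) and without the first 300 ng/ml array (0.16, or -0.30 without the second), and the cause was not tested. All of these Id2 values were smaller in size than the SE of the Id2 effect in the main fit, 0.82. Id4 was near background, so its ratios are the least certain. No paired analysis was possible because replicate numbers mark dye orientations of 1 RNA.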

Other observations

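Of the probes that the files call Tcf3, A_51_P156547 reads Tcf7l1 by its accession. Its log2 ratio was 1.12 ± 0.12 with 10 ng/ml doxycycline, 1.22 ± 0.062 with 300 ng/ml, 0.11 ± 0.039 with 1000 ng/ml as labelled and 0.45 ± 0.18 in Pax5sz2. The E2A probe gave 0.59, 0.67, -0.90 and 0.29 in the same order, so taking this probe's symbol at face value would have reported Tcf3 as past the size at 10 and 300 ng/ml. The other, dimmer Tcf7l1 probe, A_52_P387724, differed, at 0.61 ± 0.080 and 0.79 ± 0.54 there, short of the size.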
